A study of Mus musculus with 2 samples.

Results

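The genes described are Gm38421, Arhgap36, Npy6r, Gm6300, Cntnap5a, Synpr and Pzp, 7 of the 20002 genes measured by RNA-seq in whole mouse kidney. They were chosen on the measured ratio between the libraries, as genes among the largest differences that lie outside lists of immune and injury genes. Their ratios are therefore given as a description, and no test was made on them. The control library came from C57BL/6J mice given control AAV9, which the methods describe as an empty vector in one place and as control shRNA in another. The other library, labelled CKO for conditional knockout, came from C57BL/6J mice that received AAV9 carrying Regnase-2 shRNA by tail vein at 11 weeks of age, so that the manipulation is a knockdown, by a virus that the methods describe as reaching mainly the proximal tubule. The RNA-seq methods place the analysis of left kidney tissue at 14 weeks, and the AAV9 methods place harvest at 16 weeks. Each group had 1 library, and whether it held RNA of 1 mouse or of several is not stated, so no difference has a replicate check.

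Zc3h12b, which encodes Regnase-2, was read first as a check of the labels. The control had 47 of its reads and the CKO library 59, a log2 ratio of -0.25 after scaling (95% interval -0.83 to 0.33), and the sign turned to 0.16 once totals were made equal and to 0.42 with the values as deposited. The interval for the targeted mRNA holds both a fall and a rise, and the second library is called the CKO-labelled library, or the library labelled CKO, for this reason. The libraries do differ in tubular injury genes, among them Lcn2 with 28 and 3797 reads at 6.45, a gene known to rise in tubular injury of many kinds. The kidney label was checked with markers of the nephron. All 10 proximal tubule markers, 6 of the thick limb and distal tubule, 6 of the collecting duct and 5 of the podocyte had at least 10 scaled reads. The proximal tubule markers summed to 628529 control reads and 494482 in the CKO-labelled library, with a median log2 ratio of -0.76. In bulk tissue, fewer cells of a type and less RNA per cell cannot be told apart.

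These genes are not related to each other, and Gm38421 and Gm6300 are annotated as pseudogenes, whose relatives are described instead. UDP-glucuronosyltransferases of the Ugt1a locus attach glucuronic acid to bilirubin, steroids and drugs, and each enzyme joins its own first exon to exons that the whole locus shares. Gm6300 resembles genes of amino acid transporters of the solute carrier 7 family. Pregnancy zone protein is a plasma protease inhibitor of the alpha-2-macroglobulin family, synaptoporin and contactin-associated proteins belong to synaptic vesicles and to the surface of neurons, Arhgap36 binds and inhibits the catalytic subunit of protein kinase A, and Npy6r is a receptor for peptides of the neuropeptide Y family.

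The values are reads above a constant floor that was subtracted from each library, and ratios were taken after the reads of the library labelled CKO were multiplied by 0.667. Gm38421 had 4 control reads and 805 in the CKO-labelled library, Arhgap36 had 2 and 161, and Npy6r had 8 and 416. These 3 genes were nearly unread in the control library. Gm6300 had 2214 control reads and 5 in the CKO-labelled library, Cntnap5a had 252 and 10, Synpr had 138 and 5, and Pzp had 8170 and 1032. Of these 4 genes, Pzp alone kept more than 10 reads in the CKO-labelled library. All 7 passed the filter of at least 10 scaled reads in 1 library, Pzp in both libraries and the other 6 only through the library in which they were high, so those 6 had to differ to pass.

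**Figure D1:**
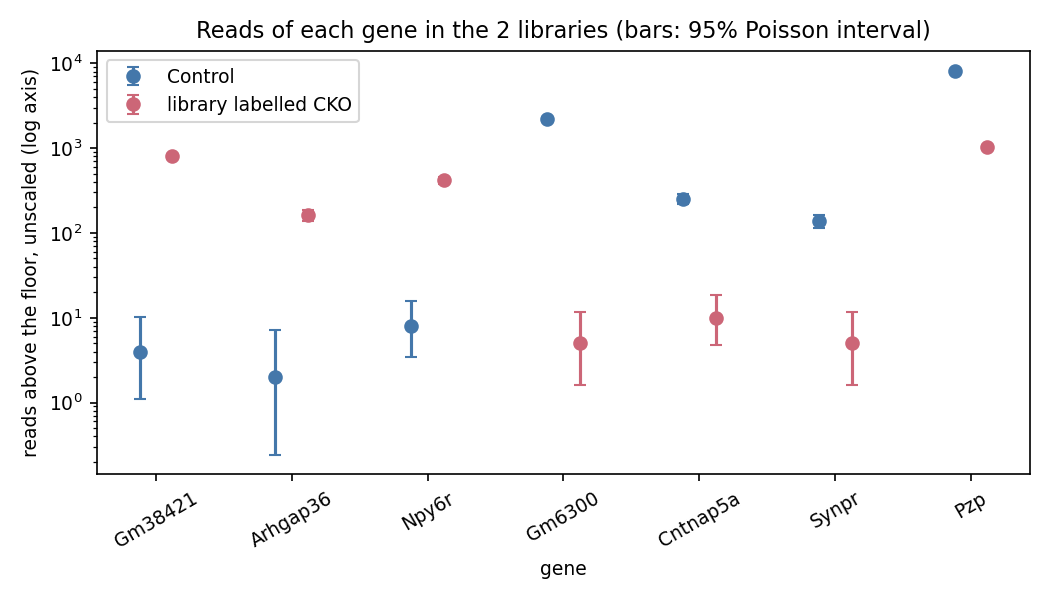
Reads above the floor of each gene in the control library (blue) and the library labelled CKO (red), unscaled, on a log axis, with 95% Poisson intervals. The low value of each pair was between 2 and 10 reads for every gene except Pzp, whose lower value was 1032.

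Of the 17469 genes that passed the filter, 2334 were 2-fold or more higher in the CKO-labelled library (13.4%) and 934 2-fold or more lower (5.35%). The counts from gene lists below are to be read against these shares of all genes. The 3 higher and 4 lower genes described here were picked from the ends of this distribution, so nothing is read from their count. Among all calls, 71.4% were higher, against 89.9% once totals were made equal and 96.5% for the values as deposited. Equal totals moved the median log2 ratio of all genes from 0.022 to 0.44, and the values as deposited moved it to 0.59. By log2 ratio with a pseudocount of 1, Gm38421 ranked 1 from the top, Arhgap36 ranked 9 and Npy6r ranked 13. From the bottom, Gm6300 ranked 1, Cntnap5a ranked 2, Synpr ranked 3 and Pzp ranked 18. Gm11100 at -3.62 and 5830411N06Rik at -3.62 came just before Pzp at -3.57, and Sec14l3 at -3.56 came just after it.

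**Figure D2:**
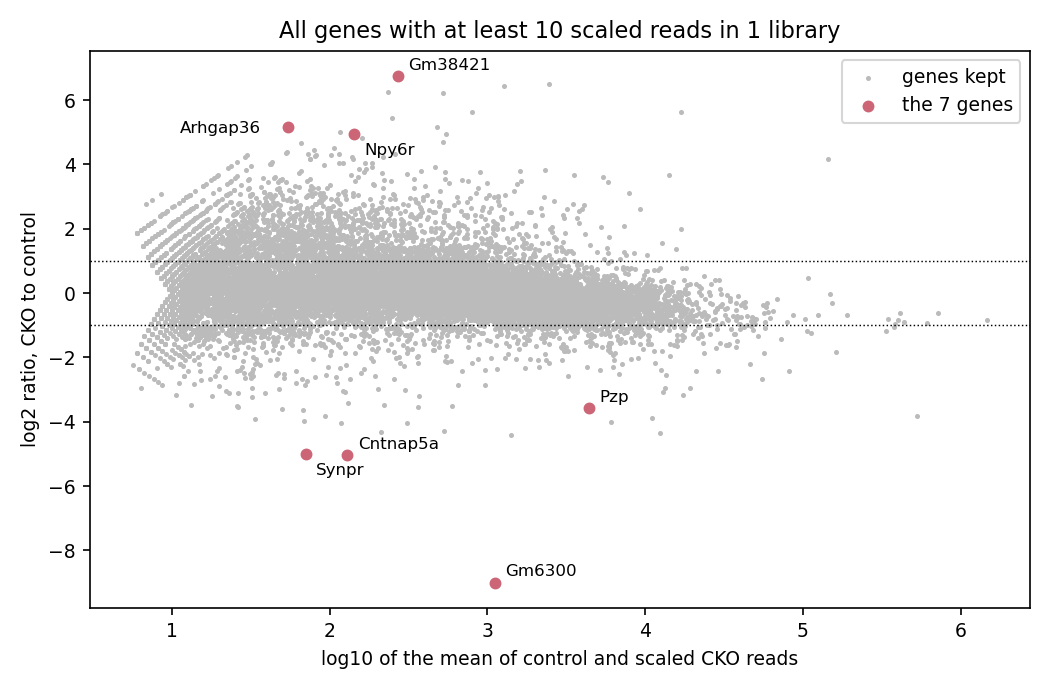
Log2 ratio of scaled CKO to control reads against the log10 mean of both for the 17469 genes kept (grey), with the 7 genes in red and dotted lines at 2-fold. Gm6300 lies at -9.00, apart from the next lowest gene, Cntnap5a, at -5.04.

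Ranked by the end of the counting interval nearest to no difference, which takes few reads into account, Gm38421 ranked 3 from the top, Npy6r ranked 13 and Arhgap36 ranked 16. From the bottom, Gm6300 ranked 1, Cntnap5a ranked 2, Synpr ranked 5 and Pzp ranked 12. With a pseudocount of 10, Arhgap36 moved to place 53 and Synpr to place 12, the furthest moves among the 7 genes at this setting. The values as deposited moved the ranks further. Arhgap36 then stood at place 222 from the top, Npy6r at 42 and Gm38421 at 9, and from the bottom Synpr at 43, Cntnap5a at 17, Pzp at 8 and Gm6300 at 1. Genes with at most 10 reads in the control library and at least 100 scaled reads in the other numbered 24, among them Gm38421, Arhgap36 and Npy6r. The opposite pattern, at most 10 scaled reads in the CKO-labelled library and at least 100 in the control, was seen in 5 genes, and 3 of them were Gm6300, Cntnap5a and Synpr. The other members of that small set were Gm31106, a lncRNA with 131 and 11 reads, and Gm11100 with 126 and 14. These limits were set after the values were seen. The way the floor was set leaves every gene at least 1 read, so absence from a library cannot be read from these values.

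Levels were compared between the genes per kilobase of the longest transcript. In the control library Pzp stood at 1745 reads per kilobase and Gm6300 at 1478. Synpr followed at 32.2 (95% Poisson interval 27.0 to 38.0) and Cntnap5a at 23.0 (20.3 to 26.0), with intervals that did not overlap. Gm38421 at 4.30 (1.17 to 11.01), Npy6r at 3.12 (1.35 to 6.14) and Arhgap36 at 0.66 (0.080 to 2.38) were lowest, and the intervals of neighbours among these 3 overlapped. In the library labelled CKO the order of scaled levels was Gm38421 at 577, Pzp at 147, Npy6r at 108 and Arhgap36 at 35.4 reads per kilobase. Gm6300 at 2.23 (0.72 to 5.19), Synpr at 0.78 (0.25 to 1.81) and Cntnap5a at 0.61 (0.29 to 1.12) lay below them, and the intervals of these 3 all overlapped.

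Gm38421 is annotated as a pseudogene of 930 bases at chr1:88055411-88056340 in RefSeq on GRCm38. The span begins at the same base as exon 1 of the Ugt1a10 transcript, which codes for the substrate-binding end of that enzyme, and 926 bases are shared. All 827 windows of 100 bases, the read length, that fit in this exon were therefore also Ugt1a10 sequence, and how the counting divided reads between the overlapping genes is not given in the sources used here. Its 4 and 805 reads made it 134-fold higher in the CKO-labelled library (95% Clopper-Pearson interval 52.2 to 494, counting error only), a log2 ratio of 6.75. Ugt1a10 itself had 102 and 399 reads, a log2 ratio of 1.37. The closest copy among the rows was exon 1 of Ugt1a9, 91.0% identical over 885 aligned bases, and Ugt1a9 had 35 and 48 reads, for a log2 ratio of -0.13. The stretches below are shown because they are an example of how few bases can separate reads of these copies. Capitals mark the 7 of 150 bases that differ, and the stretches are chr1:88055527-88055676 and chr1:88070869-88071018 on the plus strand of GRCm38, taken from GENCODE transcripts.
Gm38421: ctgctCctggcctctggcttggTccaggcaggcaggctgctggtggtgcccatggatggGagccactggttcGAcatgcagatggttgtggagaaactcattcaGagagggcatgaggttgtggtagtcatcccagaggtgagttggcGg
Ugt1a9: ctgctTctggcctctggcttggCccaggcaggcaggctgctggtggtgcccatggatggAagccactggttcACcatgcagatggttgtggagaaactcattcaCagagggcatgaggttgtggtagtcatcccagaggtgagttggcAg

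The same locus held another gene at the top of the ranking. Ugt1a2, an enzyme of the locus whose first exon is not among the 8 closest copies of Gm38421, had 53 and 7307 reads and ranked 2 from the top with a log2 ratio of 6.50. Ugt1a1, the bilirubin-conjugating enzyme, had 53 and 444 reads, 5.58-fold more in the CKO-labelled library (95% interval 4.19 to 7.57). Ugt1a5 had 32 and 104 reads, Ugt1a6a 344 and 707, and Ugt1a6b 273 and 456, with log2 ratios of 1.09, 0.45 and 0.15. Ugt1a7c, with by far the most reads of the locus, had 24898 and 22673, a log2 ratio of -0.72. Log2 ratios within the locus thus spanned -0.72 to 6.75. Gm15372, a pseudogene of the locus that was 78.4% identical to Gm38421, had 1 read in each library. Because all Ugt1a transcripts share their later exons, the reads that belong to each gene are uncertain. The genes of this locus were chosen by their position inside the Ugt1a10 span after the value of Gm38421 was known.

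**Figure D3:**
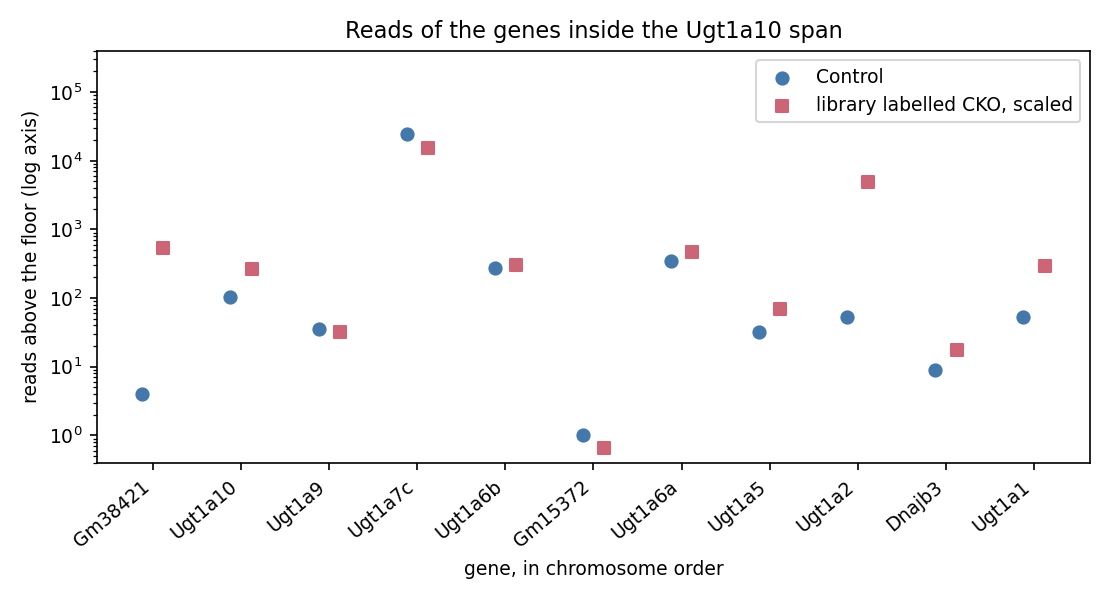
Reads of the 11 genes inside the Ugt1a10 span, in chromosome order, in the control library (circles) and, scaled, in the CKO-labelled library (squares), on a log axis. Gm38421 and Ugt1a2 differ most between the libraries, while Ugt1a9 and Ugt1a6b differ little.

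Gm6300 is annotated as a transcribed pseudogene at chr3:14363117-14374239. With 2214 and 5 reads it was 664-fold lower in the CKO-labelled library (95% Clopper-Pearson interval 284 to 2048), a log2 ratio of -9.00, and the 5 reads allow 1.62 to 11.7 by a Poisson interval. Its model matched the neighbouring Slc7a12, which encodes an amino acid transporter of the solute carrier 7 family, with 75.7% identity over 1396 aligned bases. Slc7a12 lies 106 kb away and went the other way, with 537 and 4668 reads, for a log2 ratio of 2.53. Slc7a13, another transporter of this family in the proximal tubule and 64.2% identical to Gm6300 over 782 bases, had 34059 and 6624 reads, for a log2 ratio of -2.95, and belongs to the list of genes higher in male kidney described below, which were all lower. None of the 1399 windows of 100 bases in Gm6300 occurred in a transcript of another gene. The aligned stretches at chr3:14363210-14363359 and, from its first codon on, chr3:14480797-14480946 show how far these copies differ. Capitals mark the 28 of 150 bases that are not the same.
Gm6300: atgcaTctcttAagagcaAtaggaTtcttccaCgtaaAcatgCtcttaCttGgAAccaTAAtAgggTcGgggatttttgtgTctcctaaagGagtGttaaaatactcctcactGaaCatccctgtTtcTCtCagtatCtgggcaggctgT
Slc7a12: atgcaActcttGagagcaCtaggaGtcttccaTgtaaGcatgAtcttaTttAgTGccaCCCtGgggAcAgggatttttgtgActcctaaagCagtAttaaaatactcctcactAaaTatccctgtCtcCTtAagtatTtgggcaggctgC

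Pzp lies on the minus strand at chr6:128483567-128526720 and has 36 exons in its longest transcript. Its reads numbered 8170 in the control library and 1032 in the CKO-labelled library, which is 11.9-fold lower (95% Clopper-Pearson interval 11.1 to 12.7) and a log2 ratio of -3.57. This is the one ratio of the 7 that rests on more than 10 reads in both libraries, and its interval is the narrowest. Gm10069, a lncRNA on the opposite strand that overlaps the end of Pzp, had 28 and 27 reads. The library kit kept strand, but whether the counting used it is not stated, so reads of the overlapping part cannot be told apart. A2m, a relative of Pzp at 69.6% identity over 2247 aligned bases, had 21 and 70 reads, for a log2 ratio of 1.12.

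The alpha-2-macroglobulin list held 13 genes, of which 8 passed the filter. Without Pzp, 4 of 7 were 2-fold or more higher and 1 was 2-fold or more lower. The highest was C3, the central complement component, with 668 and 49523 reads, for a log2 ratio of 5.63. C4b, another complement component, had 1010 and 7607 reads at a log2 ratio of 2.33, while C4a had 1143 and 963 at -0.83. Cd109, a membrane-anchored member, had 11 and 114 reads. Lrp1, the receptor that takes up alpha-2-macroglobulin complexes, had 2058 and 5663 reads, for a log2 ratio of 0.88. Lrpap1, the chaperone of that receptor, was lowest after Pzp with 20666 and 14956 reads, for a log2 ratio of -1.05, which became -0.63 with equal totals. The list without Pzp had a median of 1.12, beside 0.022 for all genes kept.

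Among genes with values closest to those of Pzp in both libraries, by distance on log2 axes over these 2 libraries, were Cyp7b1 (11388 and 1071 reads), Fmo5 (5546 and 1388) and Ugt2b5 (4800 and 1687). Cyp7b1 is an oxysterol hydroxylase and belongs to a list of 12 genes known for higher expression in male mouse kidney. All 12 of these were 2-fold or more lower in the CKO-labelled library, with a median log2 ratio of -2.47. Their summed reads were 1297582 and 183686, and Kap, the most abundant, had 987520 and 104163. Y-linked genes had a median of 0.22, from -0.04 for Ddx3y to 0.38 for Uty, and were read in both libraries. The part of this shift in the value of Pzp was not tested.

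RefSeq windows from 250 bases before to 50 bases after a start were given for 3 of the 7 genes, 1 for Pzp and 2 each for Synpr and Arhgap36. They were searched on both strands for 7 short motifs, here with the share of all 32851 windows that hold each. TATAAA was found in 13.6% of windows, CCAAT in 37.4% and GGGCGG, bound by Sp1, in 35.7%. The AP-1 motif TGACTCA was found in 5.20% and the STAT motif TTCNNNGAA in 8.30%. GTTAAT, part of the HNF1 recognition sequence, was found in 7.10% and AGAACA, part of the steroid receptor element, in 19.0%. The Pzp window held GTTAAT at 2 places, which begin 199 and 79 bases before the start, and AGAACA once, beginning 126 bases before it. The 250 bases before the Pzp start, chr6:128526721-128526970 on the minus strand of GRCm38.p6, are printed with these matches in capitals because Pzp is the gene of the set with the firmest ratio. Capitals spelling ATTAAC are GTTAAT on the other strand. A match describes the letters and is not a site.
Pzp: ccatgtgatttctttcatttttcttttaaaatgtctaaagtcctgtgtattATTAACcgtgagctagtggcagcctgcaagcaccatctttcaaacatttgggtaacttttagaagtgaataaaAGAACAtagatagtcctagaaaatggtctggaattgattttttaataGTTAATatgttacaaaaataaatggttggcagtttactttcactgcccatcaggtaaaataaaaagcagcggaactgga

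Synpr encodes synaptoporin, a membrane protein of synaptic vesicles, and lies at chr14:13284780-13615469. It had 138 control reads and 5 in the CKO-labelled library. The ratio was 41.4-fold lower with a wide 95% Clopper-Pearson interval of 17.3 to 130, and its log2 value was -5.00. None of its 4190 windows of 100 bases was shared with another gene. The first Synpr window held CCAAT at 2 places and GGGCGG once, and the second window held none of the motifs. GC made up 63.7% of the first window and 46% of the second, against 38% in the Pzp window and a median of 52.7% over all windows. The 250 bases before the first start, chr14:13284530-13284779 on the plus strand, are shown beside those of Pzp as the other lower gene with a window, with the matches in capitals. CCGCCC is GGGCGG on the other strand.
Synpr: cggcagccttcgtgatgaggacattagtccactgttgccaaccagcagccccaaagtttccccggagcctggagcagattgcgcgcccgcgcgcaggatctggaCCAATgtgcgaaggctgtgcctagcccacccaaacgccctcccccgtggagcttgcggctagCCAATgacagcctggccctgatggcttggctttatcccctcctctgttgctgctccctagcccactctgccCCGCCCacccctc

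The synaptophysin and synaptogyrin list held 9 gene symbols, with Sypl and Sypl1 counted separately, and 6 passed the filter. None of the 5 besides Synpr was past 2-fold. Sypl, a synaptophysin-like protein also made outside neurons, had 9491 and 7904 reads, for a log2 ratio of -0.85. Sypl2 had 2386 and 1853 and was lowest of the 5 at -0.95, and Syp, synaptophysin itself, had 190 and 245 and was highest at -0.22. The median of these 5 was -0.30. With Synpr it was -0.57, which became 0.015 with the values as deposited.

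Cntnap5a encodes a contactin-associated protein of the neurexin superfamily that sits on the surface of neurons, and it spans 902587 bases at chr1:115684737-116587323. Its 252 and 10 reads made it 37.8-fold lower in the CKO-labelled library (95% Clopper-Pearson interval 20.2 to 79.8), a log2 ratio of -5.04. Its closest relatives, Cntnap5c at 90.2% and Cntnap5b at 88.1% identity, were not among the rows, and none of its 10846 windows of 100 bases was shared with them. In the list of neurexins, contactins and their partners, 10 of 19 genes passed the filter. Of the 9 besides Cntnap5a, 5 were 2-fold or more higher and 0 2-fold or more lower, beside 13.4% and 5.35% of all genes kept, with a median of 1.05. The 5 became 3 with a pseudocount of 10, since several of these genes had few reads. With equal totals the 5 became 7, beside 3870 higher among the 17682 genes kept at that setting. Cntn2, an axonal adhesion protein, was highest with 3 and 62 reads, a log2 ratio of 3.40 and a 95% interval of 2.17 to 6.10. Cntn5 was lowest with 15 and 14 reads at -0.63. Nlgn2, a postsynaptic partner of neurexins and the most abundant of the list per kilobase, had 149 and 749 reads and stood at 1.74.

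Markers of neurons and of their sheath were read beside these neuronal genes. Of 10 neuron markers 4 passed the filter, and Snap25, Tubb3, Elavl4, Nefl and Gap43 were not among the rows. The list summed to 76 control reads and 192 in the CKO-labelled library. Uchl1, its most abundant gene in the CKO-labelled library, had 23 and 86 at 1.28, and Nefm had 3 and 30 at 2.39. Syt1, with the most control reads, had 24 and 38 at 0.07, Stmn2 had 20 and 24 at -0.30, and the median of the 4 was 0.68. The 7 Schwann cell markers summed to 365 and 1377 reads, with Mbp most abundant at 241 and 796, and Sox10 and Pmp2 were not among the rows. Of 8 adrenal medulla markers only Slc18a1 passed the filter, with 3380 and 1765 reads, while Chga had 5 and 10 and Th, Dbh, Pnmt and Chgb were not among the rows. The adrenal cortex list summed to 172 and 271 reads, mostly Akr1b7 with 116 and 157. None of these lists summed lower in the CKO-labelled library except the adrenal medulla list, through Slc18a1.

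Arhgap36 lies at chrX:49448360-49500244. Its 2 and 161 reads gave a ratio of 53.7 with a 95% Clopper-Pearson interval of 14.6 to 447, the widest of the 3 higher genes on a log scale, and a log2 ratio of 5.17. None of its 2934 windows of 100 bases was shared with another gene. Of the motifs searched, its first RefSeq window held CCAAT once, beginning 74 bases before the start, and the second held none, with GC of 55.7% and 60.3%. Of 34 genes named as GTPase activating proteins of the Arhgap series, 32 passed the filter and 7 were 2-fold or more higher, Arhgap36 among them, while 0 were 2-fold or more lower. Without Arhgap36 it was 6 of 31 higher, beside 13.4% of all genes kept. For the values as deposited it was 11 of 31, beside 3574 of all 17469 genes kept. The highest of the 31 were Arhgap30 (96 and 620 reads) at 2.09, Arhgap9 (39 and 251) at 2.07 and Arhgap11a (46 and 270) at 1.95. The lowest was Arhgap10 with 2129 and 1918 reads at -0.74. The median without Arhgap36 was 0.16.

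Arhgap36 is known to act on the Hedgehog pathway through protein kinase A, and both lists were read. All 14 Hedgehog genes passed the filter and 4 were 2-fold or more higher and 0 2-fold or more lower, beside 13.4% and 5.35% of all genes kept, with a median of 0.25. With equal totals 6 were higher, beside 3870 of the 17682 genes kept at that setting. Gli1, a transcription factor and target gene, had 12 and 95 reads at 2.31, with a 95% interval of 1.53 to 3.40. The target gene Ptch1, with far more reads (1112 and 1870), stood at 0.16, and Smo, the signal transducer, was lowest with 2421 and 2702 reads at -0.43. Of 9 genes of protein kinase A subunits and inhibitors, 1 was 2-fold or more higher, the inhibitor Pkib with 19 and 89 reads, and 0 were 2-fold or more lower. With equal totals 2 were higher, again beside 3870 of 17682 genes. The median of the list was 0.03, and 0.45 with equal totals. Of the catalytic subunits, Prkaca had 1987 and 2495 reads at -0.26 and Prkacb had 2591 and 3617 at -0.10. Pkig, an inhibitor, was lowest of the list at -0.31.

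Npy6r, a receptor gene that is intact in the mouse and a pseudogene in humans, lies on chromosome 18 from 44270108 to 44277700. It had 8 and 416 reads, 34.7-fold more in the CKO-labelled library (95% Clopper-Pearson interval 17.4 to 80.8), and a log2 ratio of 4.95. The neuropeptide Y list held 9 genes, of which 4 passed the filter. Npy, the ligand, had 681 and 1069 reads and the lowest log2 ratio, 0.07. Dpp4, a protease that trims the ligand, had 3108 and 5165 reads and stood at 0.15. Npy1r, the receptor gene with the longest aligned stretch, 71.5% identical over 295 bases, had 56 and 98 reads, for a log2 ratio of 0.22, with an interval of -0.27 to 0.72 that includes 0. Pyy, Ppy, Npy4r and Npy5r were not among the rows. Npy6r alone of this family was past 2-fold.

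**Figure D4:**
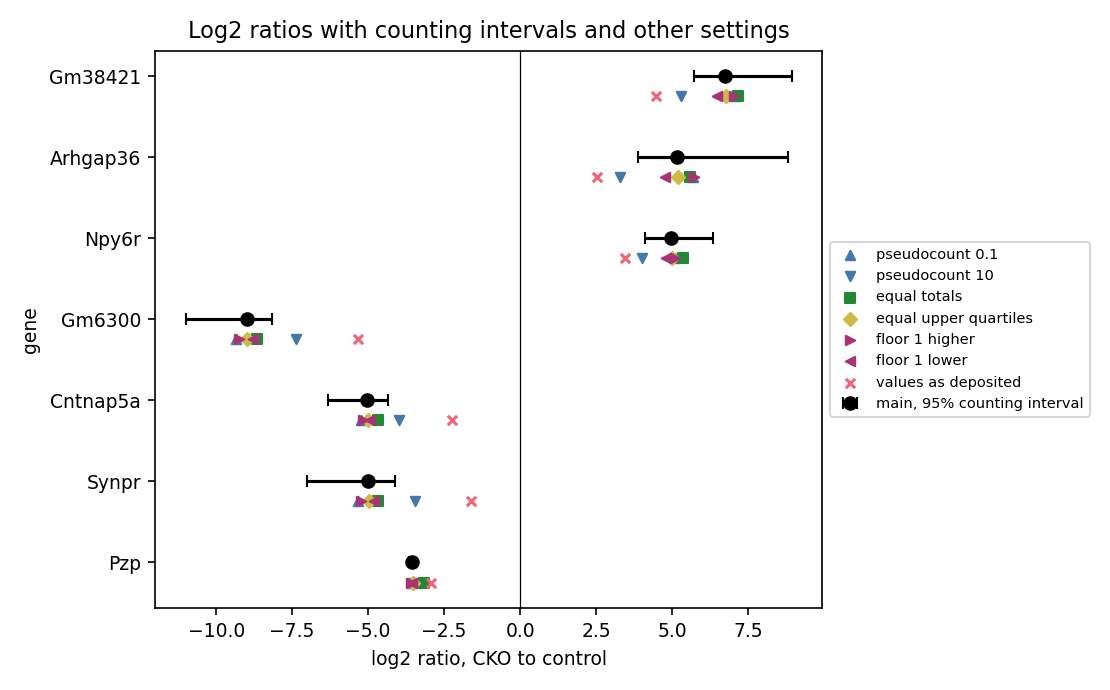
Log2 ratio of each gene with its 95% counting interval (black) and, below each, its value under 7 of the 8 other settings. All 7 genes kept their sign, and the values as deposited lay nearest to 0 for each gene.

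The measured genes next to each of the 7 on the chromosome were read to see whether the ratios extended over a region. Among the 5 measured genes on each side that did not overlap the gene itself, 61 passed the filter around the 7 genes together. Of these, 11 were 2-fold or more higher and 3 2-fold or more lower, which is 18.0% and 4.92% beside 13.4% and 5.35% of all genes. Their median log2 ratio was 0.11. The genes directly next to Gm38421 were Usp40 at 0.08 and Ugt1a9, those next to Arhgap36 were Enox2 at -0.14 and Gm14719 at -0.71, and those next to Npy6r were Spink11, with 6 and 10 reads, and Dcp2 at -0.09. Gm6300 lay between Ralyl, with 14 and 48 reads at 1.14, and Slc7a12. Cntnap5a lay between the lncRNA Gm41932, with 57 and 26 reads at -1.66, and Tsn at 0.29. Synpr had Gm5457, with 6 and 2 reads, and Rpl19-ps4, with 2 and 1, next to it. The next gene after these, Gm11100, had 126 and 14 reads at -3.62 and lay 303 kb from Synpr, so that 2 of the 20 lowest ratios came from this stretch of chromosome 14. Pzp lay between Gm8719 at -0.63 and Klrb1a, with 6 and 18 reads at 0.89.

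**Figure D5:**
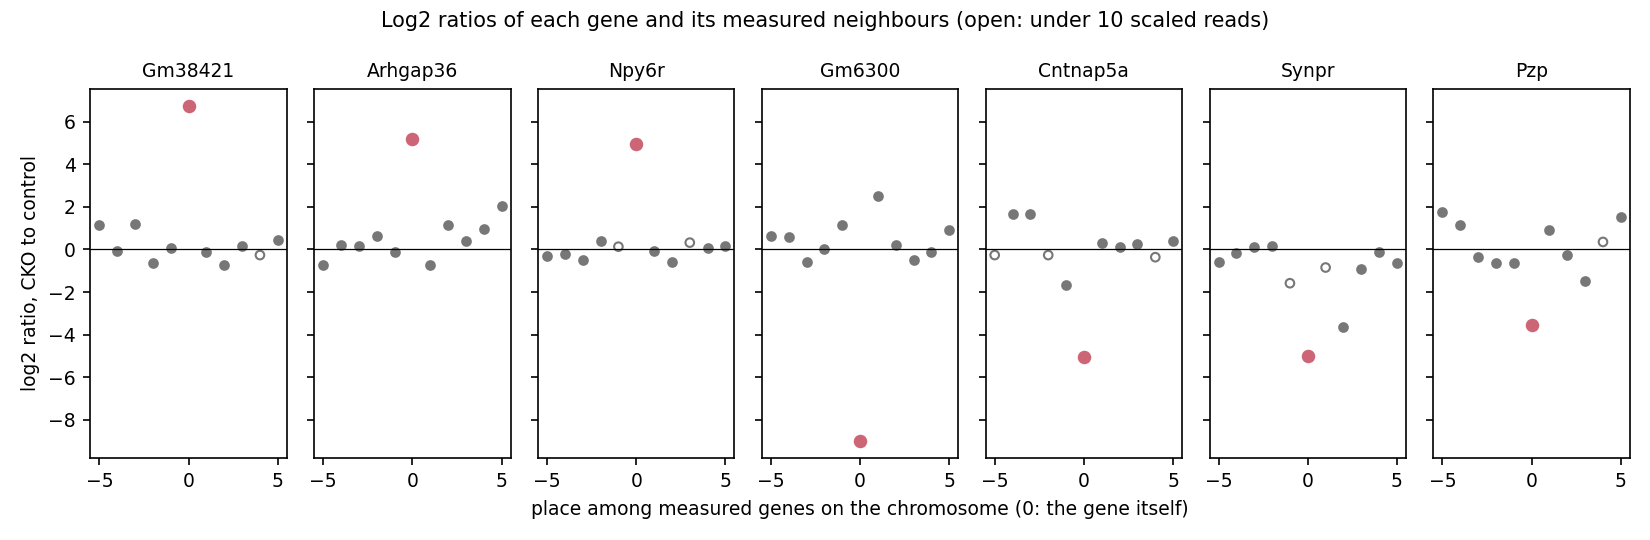
Log2 ratios of each gene (red, place 0) and of the 5 measured genes before and after it on the chromosome (grey, open where under 10 scaled reads). The neighbours' ratios lie between -3.62 and 2.53, nearer to 0 than the gene itself in each panel.

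The genes whose reads in both libraries were most like those of each gene were found in the same plane of log2 values. Serpina3n, a protease inhibitor of the acute phase, was nearest to Gm38421 with 5 and 691 reads at a distance of 0.34. Ear2, a ribonuclease of eosinophils and macrophages, was nearest to Arhgap36 with 4 and 154 reads at 0.74, followed by Lyz1. Ltbp2, an extracellular matrix protein, was nearest to Npy6r with 10 and 468 reads at 0.34, followed by Muc4 and Ccl9. Siglec1, a macrophage lectin with 10 and 725 reads, came second to Gm38421. The higher genes thus had close neighbours, while Gm6300 had none within 3 log2 units, its nearest being Cntnap5a at 3.24. Cntnap5a was nearest to 0610031O16Rik, with 222 and 19 reads at 0.85, and Synpr to Gm31106 at 0.95.

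Other cell types differed between the libraries as well. Of 8 macrophage markers, 7 were 2-fold or more higher in the CKO-labelled library, with a median of 2.61 and summed reads of 3848 and 25678, and Lyz2 was the most abundant in the CKO-labelled library with 518 and 9836. Csf1r, the most abundant of them in the control library with 2244 and 4803 reads, was the one not past 2-fold, at 0.51. Fibroblast and pericyte markers summed to 5167 and 24878 reads with a median of 1.69, and Col3a1 was the most abundant in the CKO-labelled library with 1107 and 9779, while Pdgfrb, with 1513 and 3170, was so in the control library. Of 12 tubular injury genes 11 were 2-fold or more higher, with a median of 3.55. The 5 urothelial markers that passed the filter summed with the rest of their list to 50 and 265 reads, and the 3 of T and B cells to 31 and 171. Markers of endothelium (8219 and 10954 reads, median -0.07), podocyte (8426 and 12034, -0.11), collecting duct (16156 and 31394, 0.28) and thick limb and distal tubule (140613 and 255856, -0.03) had medians closer to that of all genes. Sums in this paragraph are of unscaled reads, while the medians are of log2 ratios after scaling. The hepatocyte list summed to 3623 and 3442 reads, the latter 2295 once scaled. Its median was -0.24, which became 0.49 with the values as deposited. Most of its control reads came from Ttr, which had 2889 and 860 at a log2 ratio of -2.33. Trf had 377 and 1935 reads at 1.77 and Alb had 117 and 121, while Fgb, Ahsg, Mup3 and Cps1 were not among the rows. None of the adipocyte or pancreatic markers was among the rows. Which cells held the reads of the 7 genes, and the part of these shifts in their values, was not tested.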

How the data were processed

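Per the study methods and processing notes, the authors used STAR 2.7.3a on mm10, HTSeq for counting and DESeq2 for normalization. The same sources also name edgeR and Cufflinks 2.2.1. The deposited values are a score with no standard unit, which the authors made by counting and normalizing reads and call normalized counts: whole numbers with minima of 35 (control) and 51 (CKO). The column minimum minus 1 (34 and 50) was subtracted and the rest was taken as reads, which is an inference from the values that the sources used here do not state. This left 38851231 and 43588721 reads. The factor for CKO reads, 0.667, was the median gene-wise quotient of control over CKO. The log2 ratio used a pseudocount of 1, and genes were kept with 10 or more scaled reads in either library. Folds have no pseudocount. Intervals are 95% exact Clopper-Pearson or Poisson intervals, which cover counting error only. The design gave a bound for libraries with 3 or fewer reads, and the ratio with its interval was given instead. With 1 library per group no test was made.

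The members and gene lists were chosen with earlier results of these data known. The named genes are the 7 members, the highest and lowest ratios, the highest and lowest of each list, the most abundant markers, the genes nearest in value and the genes next on the chromosome. A few genes that these rules select are not reported here. Others, such as those of the Ugt1a locus, Slc7a13 and further list members, were chosen after their values were seen. Gene positions came from RefSeq on GRCm38.p6 (19959 of 20002 gene IDs matched) and transcripts from GENCODE M21, aligned with BLAST 2.17.0. The alternatives were other pseudocounts, scalings, floors, filters and thresholds and the values as deposited. The scaling by genes with at least 50 reads was added after the data were seen. The steps were tested on simulated data. Software was Python 3.11.15 with scipy 1.17.1, pandas 2.3.3, numpy 2.4.6 and matplotlib 3.10.9.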

Additional observations from a re-analysis of the deposited data

How the results depend on the processing

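No paired analysis was possible because the control and CKO groups hold a single library apiece. All 7 genes kept their sign under each of the 8 other settings run on them. With a pseudocount of 10 the log2 ratios were 5.29 for Gm38421, 3.29 for Arhgap36, 3.997 for Npy6r, -7.38 for Gm6300, -3.97 for Cntnap5a and -3.47 for Synpr, since a pseudocount draws ratios with few reads toward 0. With the values as deposited, which keep the floors, they were 4.46, 2.52, 3.44, -5.33, -2.23 and -1.63, and -2.92 for Pzp. Pzp was at -3.15 with equal totals, and its other values lay within or close to its narrow interval. The genes at least 2-fold higher and lower numbered 3870 and 437 with equal totals and 3574 and 131 with the values as deposited. A 4-fold threshold left 749 and 166, as a higher threshold must, and at least 50 scaled reads left 1614 higher and 617 lower, from fewer genes. Of 192 values of list medians under other settings 18 lay outside a nominal 95% binomial interval of the median. For lists with 5 or fewer genes kept, that interval is the full range of the list and reaches less than 95% coverage. Of 1816 values of other named genes 382 lay outside their counting interval. None of the medians or named genes past 2-fold changed sign. Depth limits Arhgap36, Gm38421, Gm6300 and Synpr most, each with 5 or fewer reads in 1 library.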

Other observations

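The lowest ratios held many genes that do not code for protein. Among the 50 lowest log2 ratios 23 genes (46%) were not protein-coding by RefSeq, 21 of them lncRNAs, beside 3 (6%) of the 50 highest and 16.5% of the 17434 genes kept that have a RefSeq type. With at least 50 scaled reads in 1 library the numbers were 19 and 2. Gm6300 is 1 of the 2 pseudogenes among the 50 lowest, and Gm38421 is 1 of the 3 among the 50 highest. Examples of lncRNAs with values near those of Cntnap5a and Synpr were Gm31106 with 131 and 11 reads and Gm31037 with 64 and 5. This count was made after the values were seen, and no test was made on it.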
